A study of Mus musculus with 6 samples.

Results

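The pairs described here are the dominant connections between a regulatory element and a gene in cultured mouse oligodendrocyte precursor cells (OPCs), chosen by an activity-by-contact (ABC) score above 0.2. The deposited tables list 66637 pairs of an element and a target gene in untreated cells and 71478 in cells given interferon-γ (IFN-γ), 138115 in all. Of these, 293 pairs in untreated cells (241 elements, 287 target genes) and 273 in treated cells (224 elements, 271 target genes) scored above 0.2, or 0.44% and 0.382% of each table. The cells were primary OPCs from the brains of mice of genotype Sox10-Cre/RCE, in which cells of the Sox10 lineage carry a fluorescent reporter. The labels give the strain as C57BL/6j, but by the methods the RCE reporter parent had a mixed C57BL/6 and CD1 background. From 24 h after passaging they were kept either in proliferation medium alone (Ctr-OPCs) or in the same medium to which IFN-γ was added at 100 ng/mL (IFN-γ-OPCs). Both conditions share genotype, strain and medium, and the brains of several pups were pooled for each culture. Per the study's methods, OPCs were selected by the Sox10 reporter or by CD140a, so the cultures are enriched rather than pure. H3K27ac HiChIP was made in 3 libraries per condition, but each deposited table holds 1 pooled estimate per condition, so no value below has a replicate error and no difference between the conditions was tested. The sequencing depth is unknown from these tables.

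An enhancer is a stretch of DNA that raises the transcription of a gene it comes close to in the nucleus, and active enhancers and promoters carry acetylation of histone H3 at lysine 27 (H3K27ac) and open chromatin. The ABC model multiplies the activity of an element, taken from open chromatin and H3K27ac, by its contact with a promoter, and divides by the sum of the same product over all elements around that promoter. A score is therefore a share within 1 gene: a pair above 0.2 holds more than that share of the summed signal of its gene, whatever the size of the sum. OPCs are the dividing precursors of the myelin-forming oligodendrocytes, and IFN-γ is a cytokine of T cells that induces antigen presentation and chemokine genes in many cell types.

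Because the members are regions, the DNA of the elements that carry the results is shown first. The 3 pairs with a protein-coding target and the highest lower score over both tables were taken, together with the OPC-lineage genes among the members. Elements whose central 300 bases hold more than 30 bases of annotated untranslated exon were passed over, which removed 6 pairs, among them Mtfr1 and Slitrk2. The sequences are the plus strand of GRCm38 (mm10), 300 central bases of each 500 bp element, at chr9:35305303-35305602 for Cdon, chr7:54836384-54836683 for Luzp2, chr19:34878134-34878433 for Pank1, chr9:56868222-56868521 for Cspg4 and chr14:33974853-33975152 for Zfp488. Capitals mark matches on either strand to the motifs searched, which are listed with their frequencies further on.
Cdon: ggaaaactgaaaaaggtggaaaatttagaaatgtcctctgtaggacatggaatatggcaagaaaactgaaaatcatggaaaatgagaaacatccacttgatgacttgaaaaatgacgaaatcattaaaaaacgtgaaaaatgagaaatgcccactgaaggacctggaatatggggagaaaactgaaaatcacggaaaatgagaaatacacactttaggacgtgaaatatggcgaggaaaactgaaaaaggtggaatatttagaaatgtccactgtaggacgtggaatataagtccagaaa
Luzp2: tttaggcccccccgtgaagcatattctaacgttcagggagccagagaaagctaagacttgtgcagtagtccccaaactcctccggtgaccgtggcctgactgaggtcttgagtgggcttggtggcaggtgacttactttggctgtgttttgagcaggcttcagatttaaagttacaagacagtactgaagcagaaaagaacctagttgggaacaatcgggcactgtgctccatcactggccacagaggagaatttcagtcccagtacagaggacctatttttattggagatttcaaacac
Pank1: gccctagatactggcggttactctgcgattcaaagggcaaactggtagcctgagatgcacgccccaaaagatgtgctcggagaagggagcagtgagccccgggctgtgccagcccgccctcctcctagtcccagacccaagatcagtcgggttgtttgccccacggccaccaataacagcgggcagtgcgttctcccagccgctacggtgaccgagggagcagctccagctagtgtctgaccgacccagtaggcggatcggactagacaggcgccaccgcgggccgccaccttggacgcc
Cspg4: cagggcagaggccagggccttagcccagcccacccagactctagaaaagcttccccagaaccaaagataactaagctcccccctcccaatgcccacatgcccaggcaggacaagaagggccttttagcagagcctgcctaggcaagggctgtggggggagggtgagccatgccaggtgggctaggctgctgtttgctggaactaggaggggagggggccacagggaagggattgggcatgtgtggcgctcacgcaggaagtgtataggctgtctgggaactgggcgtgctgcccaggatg
Zfp488: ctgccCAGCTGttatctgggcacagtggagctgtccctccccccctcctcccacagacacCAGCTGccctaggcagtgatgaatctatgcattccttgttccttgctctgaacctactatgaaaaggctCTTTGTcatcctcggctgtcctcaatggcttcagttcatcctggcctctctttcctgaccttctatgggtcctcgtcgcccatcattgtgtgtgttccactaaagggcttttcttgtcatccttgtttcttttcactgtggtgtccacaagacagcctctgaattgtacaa
The centres of the Luzp2, Pank1, Cspg4 and Zfp488 elements lie in introns of their own target genes, while the Cdon element lies in an intron of another gene 116 kb from the Cdon transcription start site (TSS). Within the Cdon window 22% of the 10-base words occurred more than once, against 0% in the Luzp2, Pank1 and Cspg4 windows and 0.687% in the Zfp488 window. The whole Cdon element is 83.6% soft-masked as repeat in the reference, and 44.5% of its 31-base words occur at more than 1 place in the genome. Matches were found in the Zfp488 window alone, where CAGCTG occurs 2 times and ACAAAG 1 time.

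What the members share by the rule is a high score. The median score was 0.236 in Ctr-OPCs (quartiles 0.215 and 0.282, highest 0.803) and 0.244 in IFN-γ-OPCs (quartiles 0.215 and 0.295, highest 0.772). In 98% and 99.3% of the pairs the element was the highest scoring one listed for its gene, and the next element of the same gene had a median score of 0.0533 and 0.0507. A median of 3 elements was listed per target gene in both tables, and 16% and 13.9% of the members had no other listed element. In Ctr-OPCs 6 genes had 2 elements above 0.2, namely C030047K22Rik, Cdh10, Gm42676, Gpr37, Pcdh11x and Slitrk5, and in IFN-γ-OPCs 2 genes did, AA545190 and Gm15726. The threshold cuts through a continuous range of scores: 67 Ctr pairs scored 0.19 to 0.2 and 58 scored 0.2 to 0.21, with 52 and 55 in the IFN-γ table. Just inside were Crh (0.2002), Gm43576 (0.2003) and Gm18092 (0.2003) in Ctr-OPCs and Gm48964 (0.2001), Uba1 (0.2001) and Usp14 (0.2002) in IFN-γ-OPCs. Just outside were Gm24186 (0.1997), Gm38326 (0.1999) and Gm26407 (0.19997) in Ctr-OPCs and Gm45346 (0.1997), Gm37564 (0.1998) and Igsf9b (0.19999) in IFN-γ-OPCs. Gm45346 itself stood at 0.2005 in Ctr-OPCs, so a difference of this size moves a pair across the threshold.

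Most of the dominant pairs had an active element close to the TSS. The median activity was 3.06 (Ctr-OPCs) and 2.90 (IFN-γ-OPCs), on the scale of the deposited tables, against 1.70 and 1.62 for pairs scoring 0.05 to 0.2. By element, 56% of the 241 Ctr elements and 58.9% of the 224 IFN-γ elements were in the top 10% of all listed elements by activity, but 9.54% and 8.04% lay below the median activity of all listed elements. The median distance to the TSS was 2731 bp and 2898 bp, against 6125.5 bp and 6178 bp for pairs scoring 0.05 to 0.2. Element and TSS fell in the same 5 kb contact bin in 47.1% and 45.1% of the members and in adjacent bins in 38.6% and 39.6%. Among pairs scoring 0.05 to 0.2 these shares were 22.7% and 22.3%, and 37.3% and 38%. The median contact was 0.0408 and 0.0449, against 0.0338 and 0.0358. The gene total, which is the denominator of the score, had a median of 0.445 and 0.498 among members and of 0.683 and 0.707 among pairs scoring 0.05 to 0.2, so the members' genes had less summed signal around them. These quantities are the inputs of the score and describe the selection.

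The promoters of the target genes had activity quantiles close to those of lower-scoring pairs. The deposited promoter activity quantile, which ranks each gene's promoter from 0 to 1 and starts at 0.4 in these tables, had a median of 0.664 for members in Ctr-OPCs (95% interval of the median from 0.619) and 0.673 in IFN-γ-OPCs (from 0.639). Pairs scoring 0.05 to 0.2 had 0.671 and 0.679. Among members with a protein-coding target the median quantile was 0.774 and 0.784, against 0.514 and 0.548 for pseudogene targets. By rule no pair joins a promoter element to its own TSS, and the shortest listed distance was 750 bp.

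**Figure D1:**
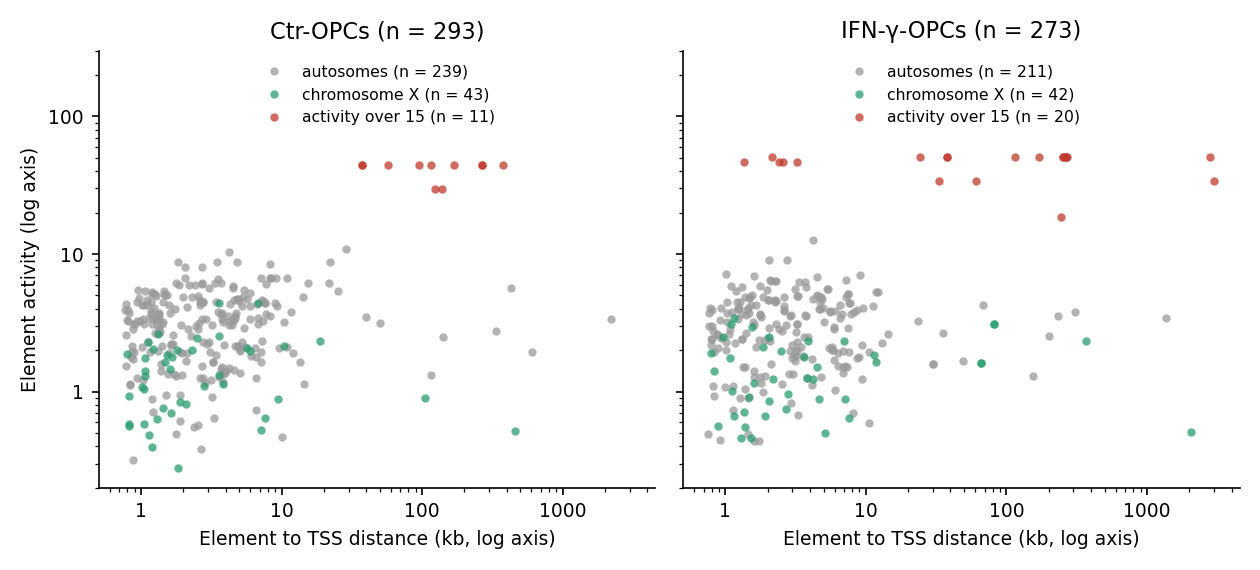
Each point is 1 pair above 0.2, with the distance from element to TSS in kb against the activity of the element (both log axes), for 293 pairs (Ctr-OPCs) and 273 (IFN-γ-OPCs). Green points are on chromosome X and red points have an activity over 15. The red points form horizontal rows because 2 elements (Ctr-OPCs) and 4 (IFN-γ-OPCs) supply all of them.

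The most active members came from few elements. In Ctr-OPCs 11 pairs and in IFN-γ-OPCs 20 pairs had an element with an activity over 15, from 2 and 4 elements. The highest activity elsewhere was 10.8 and 12.6. These elements gave 11 of the 21 Ctr members (52.4%) and 14 of the 29 IFN-γ members (48.3%) that spanned more than 30 kb, and other elements gave the rest. The element at chr9:35305203-35305702 in Ctr-OPCs (chr9:35305199-35305698 in IFN-γ-OPCs), the one printed for Cdon, had an activity of 44.3 and 50.8 and was listed with 110 and 102 genes. Of these, 9 and 12 scored above 0.2, the most of any element. Its Ctr targets above 0.2 were Cdon (a cell-surface co-receptor of Hedgehog signalling) at 0.370, 2610105M22Rik at 0.321, Fam118b and Rpusd4 at 0.285 each, Gm25630 at 0.281, Kirrel3os at 0.213, Foxred1 (an assembly factor of respiratory complex I) at 0.209, and Pate2 and Hyls1 at 0.204 each. In IFN-γ-OPCs it gave the highest score of that table, 0.772 for the lincRNA Gm33838, and 0.513 for Cdon. It also gave the second most distant pair, Gm38346 at 2795 kb, with a score of 0.413 against 0.0397 in Ctr-OPCs.

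A second element of this kind, at chr6:103648952-103649451 in Ctr-OPCs (36% soft-masked, 27.2% of 31-base words repeated), lies in an intron of Chl1, a neural adhesion molecule of the L1 family. Its activity was 29.5 (Ctr-OPCs) and 33.96 (IFN-γ-OPCs). It scored above 0.2 for Gm44439 (0.489) and Chl1 (0.367) in Ctr-OPCs, and for Gm44436 (0.523), Gm24784 (0.463) and Gm44108 (0.312, the most distant pair of all at 3022 kb) in IFN-γ-OPCs. The targets above 0.2 thus differed between the tables although the element was the same. In IFN-γ-OPCs the element at chr17:39845251-39845966 (activity 46.5, GC content 72.6%), which was 3.21% soft-masked with 0% of its 31-base words repeated, scored 0.270 to 0.271 for AY036118, CT010467.1, Gm42418 and Gm26917, of which CT010467.1 is annotated as ribosomal RNA. The same 4 pairs scored 0.192 in Ctr-OPCs at an activity of 43.7. The element at chr15:75086112-75087080 (activity 18.6, 41.4% of words repeated) completed the IFN-γ set with Cyp11b1, a steroid hydroxylase, at 245 kb. The 2 highest Ctr scores also came from elements with repeated sequence: Gm10717 (0.803, 69.4% soft-masked) and Gm21738 (0.637, 72.4% soft-masked). Members were therefore also counted without elements that were over 50% soft-masked, had over 20% of their 31-base words repeated or had an activity over 15, which removed 22 Ctr pairs and 40 IFN-γ pairs. Of the remaining 271 and 233 members, 38% and 44.2% were above 0.2 in both tables, 14% and 15% were on chromosome X, and the median distance was 2.62 kb and 2.61 kb. Whether sequence copies missing from the reference add to the activity of these elements was not tested.

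Several elements served more than 1 gene. In Ctr-OPCs 38 of 241 elements had at least 2 targets above 0.2 and together made 90 pairs, and in IFN-γ-OPCs 32 of 224 elements made 81 pairs. For 26 and 25 of these elements all targets above 0.2 had their TSSs within 5 kb of each other, so that neighbouring or divergent genes received nearly the same score. After the chromosome 9 element came Ctr elements with 3 targets each, among them the element of Rap2b, a Ras-family GTPase, B430305J03Rik and Gm37696 (scores 0.3 to 0.308).

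Protein-coding genes made up 51.9% of the Ctr members (152 pairs, Wilson 95% interval 46.2 to 57.5%) and 48.4% of the IFN-γ members (132 pairs, 42.5 to 54.3%). Over all listed pairs they made up 43.2% and 43.3%, and over pairs scoring 0.05 to 0.2, 42.9% and 43%. Without elements that had a TSS of any gene within 250 bp the shares were nearer, at 43.7% and 40.9% of members against 39.3% and 39.6% of pairs scoring 0.05 to 0.2 and 41.5% and 41.6% of all pairs. Without pairs whose element and TSS shared a 5 kb bin they were 41.9% and 39.3% against 40.4% and 41.1% and against 42.5% and 42.8%. In both selections the shares of the other pairs lay inside the Wilson interval of the members. These intervals cover counting error only and treat pairs as separate, although pairs can share an element. Pseudogenes were targets in 17.1% and 15.4% of members (14.8% and 14.6% of all pairs), mostly processed pseudogenes with 43 and 34 pairs. Long non-coding classes were targets in 16.4% and 20.5% (23% and 23.1% of all pairs), TEC genes, a GENCODE class for loci that await experimental evidence, in 6.83% and 6.96% (7.46% and 7.56% of all pairs), and small RNAs in 7.85% and 8.79% (11% and 11.1% of all pairs). Of the small RNAs, microRNA genes contributed 9 and 8 pairs. Protein-coding pairs were also the nearest, with a median distance of 1.86 kb and 2.07 kb against 4.40 kb and 5.85 kb for pseudogene targets.

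The protein-coding genes with the highest scores after those of repeated elements are known for varied functions. Ttyh1, a tweety-family membrane protein, scored 0.447 in Ctr-OPCs from an element of activity 8.77 at 4.79 kb, and 0.285 in IFN-γ-OPCs with an activity of 4.93. Mtfr1, a regulator of mitochondrial fission, had 0.386 and 0.373 from an element in its own untranslated exon 0.883 kb from the TSS. Slitrk2, a neuronal transmembrane protein, had 0.379 and 0.372. For Slitrk2 activity was 2.52 and 1.79 while contact was 0.0226 and 0.0431, so the score was nearly equal in both tables with different inputs. Vma21, an assembly factor of the vacuolar proton pump, had 0.321 and 0.365. The Ctr table was also led by Zfx (0.447), a zinc-finger transcription factor, Hs6st2 (0.415), a heparan sulfate sulfotransferase, and Huwe1 (0.372), a ubiquitin ligase. Huwe1 had 0.263 in IFN-γ-OPCs, whereas the Zfx pair was not listed there and Hs6st2 had no listed pair. The IFN-γ table was led, after Cdon, by Yipf6 (0.392), a Golgi membrane protein whose gene is not listed in Ctr-OPCs, Akap14 (0.371), an anchoring protein of protein kinase A, Magee1 (0.369) and Mum1l1 (0.367). Akap14 and Mum1l1 had 0.265 and 0.246 in Ctr-OPCs, and the Magee1 pair was not listed there.

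Many of these dominant elements lay beside a second TSS of their own target gene. In Ctr-OPCs 60 of 293 members (20.5%, Wilson 95% interval 16.3 to 25.5%) and in IFN-γ-OPCs 51 of 273 (18.7%, 14.5 to 23.7%) had another annotated TSS of the target gene within 250 bp of the element. Among pairs scoring 0.05 to 0.2 the shares were 7.12% and 6.4%. Members are nearer to the TSS, so the shares were also read within distance classes. Between 0.75 and 2 kb they were 31.1% and 26.7% of members against 16.8% and 15.2%, and between 2 and 10 kb 16.1% and 16% against 6.81% and 6.22%. Of these pairs 59 and 48 had protein-coding targets, among them Mtfr1, Slitrk2, Ttyh1, Zfx, Hs6st2, Huwe1, Vma21 and Yipf6. A TSS of another gene but none of the target lay within 250 bp in 11.6% and 8.79% of members, close to the 11.4% and 10.5% of pairs scoring 0.05 to 0.2. In 67.9% and 72.5% of members no annotated TSS lay within 250 bp, against 81.5% and 83.1% of pairs scoring 0.05 to 0.2. Elements lay inside the body of the target gene in 44.4% and 45.8% of members against 28.8% and 27.8%. At the element centre the annotation of any gene was intron in 51.5% and 54.2% of members, untranslated exon in 12.6% and 13.9%, coding exon in 5.12% and 4.4%, and no gene in 24.2% and 20.5%. Among pairs scoring 0.05 to 0.2 these shares were 52.4% and 52.2%, 8.31% and 7.69%, 5.4% and 4.15%, and 28.4% and 30.4%. The intron and coding exon shares of members were thus near those of lower-scoring pairs.

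The base composition of the elements differed beside and away from a TSS. Over distinct elements, 31.1% of the 241 Ctr elements and 29% of the 224 IFN-γ elements had a GC content over 55% with an observed to expected CpG ratio over 0.6, against 14.1% and 12.6% of elements whose best score was 0.05 to 0.2. Among members beside another TSS of their gene 75% and 68.6% met this CpG rule, and among the other members 19.7% and 18.9%. Among elements with no annotated TSS of any gene within 250 bp, 15.7% and 15.5% of member elements met it against 7.36% and 6.37% of elements scoring 0.05 to 0.2, so members had the higher share there too. The GC-rich motif CCCCGCCC, bound by SP and KLF factors, was found in 22.4% and 19.2% of member elements against 11.9% and 11.3%. TGANTCA, the AP-1 motif, was found in 14.9% and 15.6% against 19.6% and 20.6%. ACAAAG, a SOX motif, was found in 40.7% and 47.8% against 50.7% and 50%, and the E-box CAGCTG in 49.8% and 45.1% against 48% and 45.1%. The interferon-γ activated site TTCNNNGAA was found in 20.3% and 18.3% against 19.7% and 20.4%, and GAAANNGAA, the core of interferon-stimulated response elements, in 18.3% and 20.5% against 20.1% and 22.8%. TATAAA was found in 23.2% of member elements in both tables against 23.4% and 24.5%. These shares mix elements beside a TSS with others, so they were also read among elements with no TSS within 250 bp. There ACAAAG was found in 48.8% and 57.8% against 53.3% and 52.6%, and TATAAA in 29.5% and 28.6% against 25.5% and 26.5%. TTCNNNGAA was found there in 24.7% and 21.7% against 20.5% and 21.4%, and GAAANNGAA in 21.7% and 23.6% against 21.5% and 24.4%. TGANTCA stayed lower, with 18.1% and 18.6% against 20.8% and 21.9%, and CCCCGCCC higher, with 15.7% and 13% against 8.18% and 7.82%. Both strands were searched, and the median element was 500 bp long in each class. A match is a description of the letters and does not show a bound site.

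**Figure D2:**
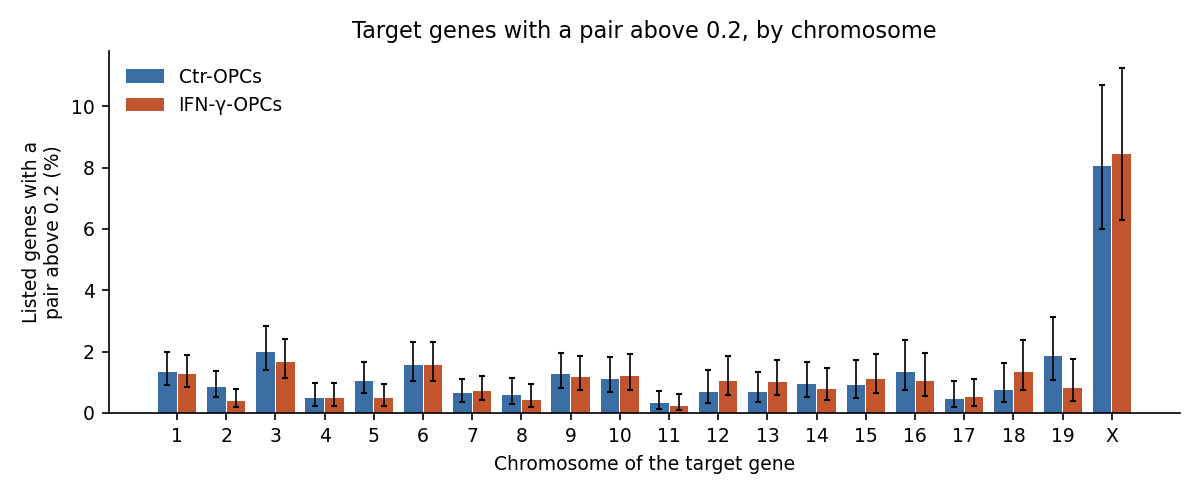
Bars give, for each chromosome, the percentage of target genes listed in a table that have a pair above 0.2, for Ctr-OPCs (blue) and IFN-γ-OPCs (orange), with Wilson 95% intervals as lines. Chromosome X stands at 8.05% and 8.44%, and the autosomes between 0.308% and 1.98% in Ctr-OPCs and between 0.238% and 1.65% in IFN-γ-OPCs.

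Dominant pairs were concentrated on chromosome X. It carried 43 of 293 members in Ctr-OPCs (14.7%, Wilson 95% interval 11.1 to 19.2%) and 42 of 273 in IFN-γ-OPCs (15.4%, 11.6 to 20.1%), but 2.8% and 2.49% of all listed pairs and 3.92% and 3.72% of pairs scoring 0.05 to 0.2. By gene, 42 of 522 listed X-linked genes had a pair above 0.2 in Ctr-OPCs (8.05%, 6.01 to 10.7%), against 245 of 25257 autosomal genes (0.97%, 0.856 to 1.1%). In IFN-γ-OPCs 41 of 486 X-linked genes (8.44%, 6.28 to 11.2%) and 230 of 26105 autosomal genes (0.881%, 0.775 to 1%) did. The same held among protein-coding genes alone, with 8.17% and 8.09% of X-linked against 0.95% and 0.811% of autosomal genes. Within distances of 0.75 to 2 kb, X-linked pairs were 21% and 17.8% of members against 3.65% and 2.93% of pairs scoring 0.05 to 0.2. On chromosome X, 34 of 43 and 31 of 42 members had a protein-coding target. X-linked genes with a pair above 0.2 in both tables included Slitrk2, Vma21, Huwe1, Akap14, Mum1l1, Sox3 (a transcription factor of neural progenitors) and Maoa (a monoamine oxidase). For Sox3 the Ctr and IFN-γ elements did not overlap.

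The inputs of the X-linked members differed from those of the autosomal ones. Their median activity was 1.30 (Ctr-OPCs) and 1.34 (IFN-γ-OPCs), against 3.34 and 3.41 on autosomes, while their median contact was 0.0430 and 0.0462 against 0.0404 and 0.0447. The median gene total was 0.188 and 0.231 on chromosome X against 0.489 and 0.563. X-linked members thus reached a score above 0.2 with less active elements and a smaller sum around the gene. Lower totals were not limited to members: over all listed pairs the median total was 0.209 and 0.230 on chromosome X against 0.752 and 0.744. Per the study's methods the cultures came from pups of both sexes, and the sex ratio of each library is not given in the sources used here. The part of chromosome copy number or of the mapping of reads to chromosome X in these values was not tested.

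**Figure D3:**
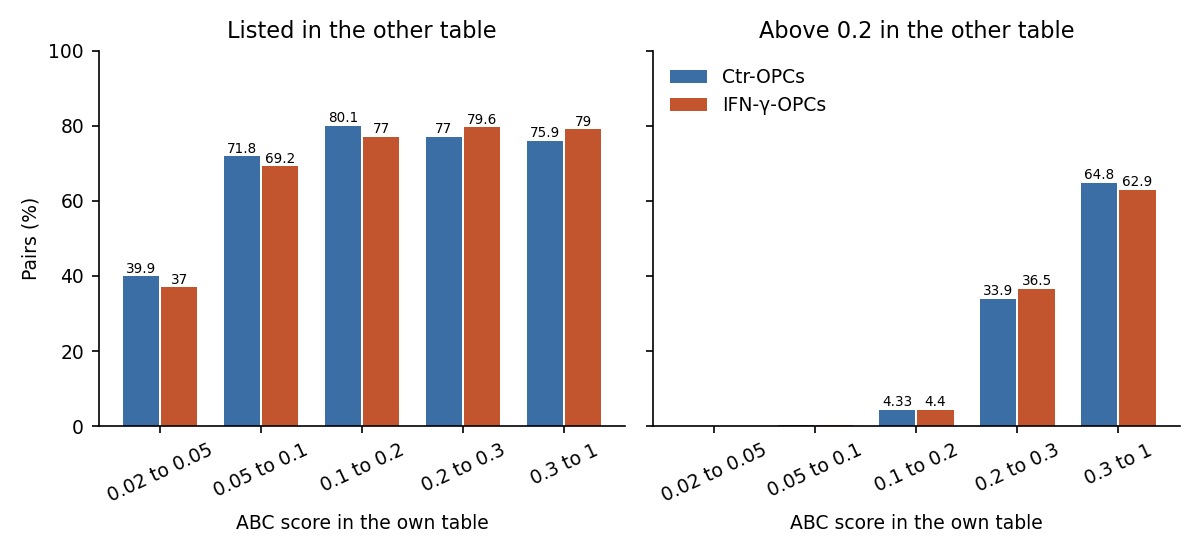
Bars give the percentage of pairs in 5 classes of ABC score that the other condition's table lists (left) and that score above 0.2 there (right), for Ctr-OPCs (blue) and IFN-γ-OPCs (orange). The share listed rises from 39.9% and 37% in the lowest class to 80.1% and 77% at 0.1 to 0.2 and stays near that level above, while the share above 0.2 rises from 4.33% and 4.4% at 0.1 to 0.2 to 64.8% and 62.9% above 0.3.

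The same pair was then looked up in the other condition, as a pair of the same target gene whose element overlapped by at least 1 bp. Of the 293 Ctr members, 225 (76.8%, Wilson 95% interval 71.6 to 81.3%) were listed in the IFN-γ table. In the opposite direction 217 of 273 members (79.5%, 74.3 to 83.9%) were listed in the Ctr table. Over all pairs 45.8% and 42.8% were listed in the other table, and over pairs scoring 0.05 to 0.2, 73.4% and 70.6%. Being above 0.2 in both was less common: 116 pairs, which are 39.6% of the Ctr members (34.2 to 45.3%) and 42.5% of the IFN-γ members (36.8 to 48.4%). The background over all pairs was 0.359% and 0.334%, and over pairs scoring 0.05 to 0.2 it was 0.986% and 0.98%. Since the score chose the members, these shares describe how far 2 tables from the same kind of cell repeat each other and are no test.

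Members not above 0.2 in the other table scored lower there or were not listed. Of the Ctr members, 95 scored 0.1 to 0.2 in IFN-γ-OPCs, 13 scored 0.05 to 0.1 and 1 scored below 0.05. For 16 (5.46%) the gene was listed without this pair, against 12.7% of pairs scoring 0.05 to 0.2 and 36.1% of all pairs. For 52 (17.7%) the gene was not listed at all, against 14% and 18.2%. Of the IFN-γ members, 82 scored 0.1 to 0.2 in Ctr-OPCs, 11 scored 0.05 to 0.1 and 8 scored below 0.05, with the pair alone not listed for 18 (6.59%, against 14.4% of pairs scoring 0.05 to 0.2 and 37% of all pairs) and the gene not listed for 38 (13.9%, against 15% and 20.2%). A gene drops out of a table when its promoter quantile is under 0.4 or when no element reaches a score of 0.02, so an unlisted gene has no measured score. The gene was unlisted for 38% of Ctr and 28.6% of IFN-γ members with a pseudogene target and for 39.1% and 16.7% with a small RNA target, and for 6.58% and 9.09% with a protein-coding target. Among pairs scoring 0.05 to 0.2 the shares were 32.9% and 32.4%, 18.4% and 19.3%, and 7.15% and 7.77% for the same target classes. Of protein-coding members 45.4% and 52.3% were above 0.2 in both tables, and of pseudogene members 24% and 28.6%. By gene, 121 of 437 target genes had a pair above 0.2 in both tables, which is 42.2% of the Ctr genes and 44.6% of the IFN-γ genes. Among protein-coding genes it was 71 of 209. Counts by gene do not require the same element in both tables.

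**Figure D4:**
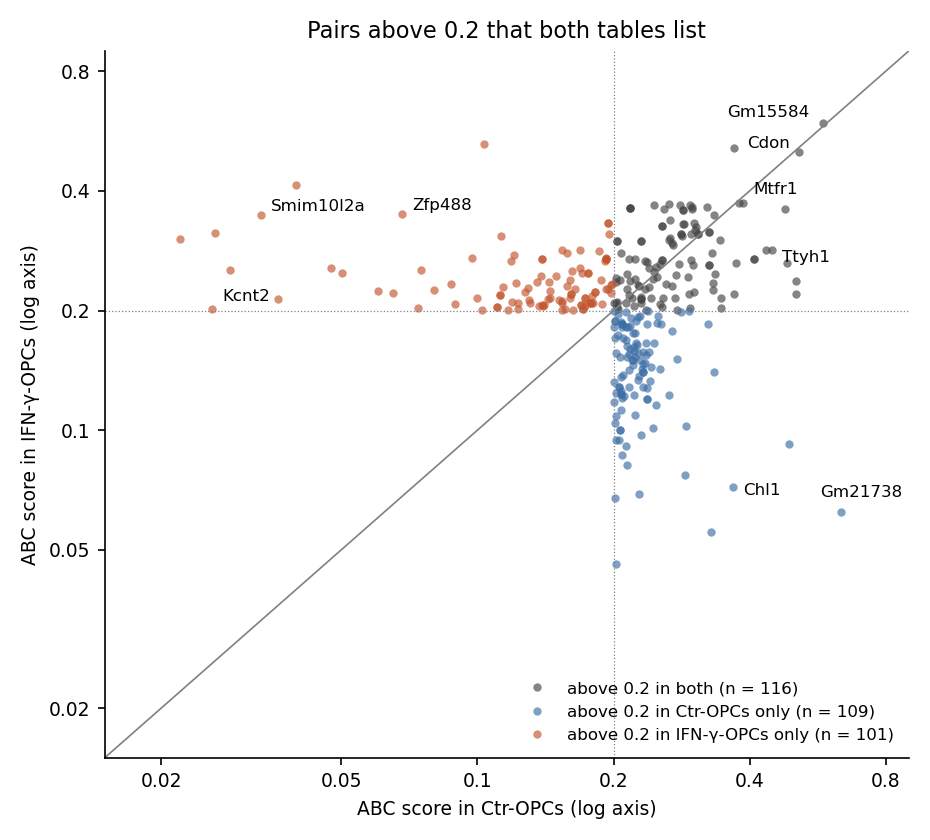
Each point is a pair above 0.2 in at least 1 table that both tables list, with its ABC score in Ctr-OPCs against that in IFN-γ-OPCs (log axes). Dotted lines mark 0.2 and the diagonal marks equal scores. The 116 pairs above 0.2 in both lie around the diagonal, and the 109 and 101 pairs above 0.2 in Ctr-OPCs or IFN-γ-OPCs alone fall away from it, with Gm21738, Chl1, Smim10l2a, Zfp488 and Kcnt2 far off.

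Scores 2-fold lower in the other table were found in about as large a share of the members as of pairs scoring 0.05 to 0.2. Of the Ctr members listed in both tables, 24 of 225 (10.7%, Wilson 95% interval 7.27 to 15.4%) were at least 2-fold lower in IFN-γ-OPCs and 0 were 2-fold higher, which allows a share of up to 1.68%. Of the IFN-γ members, 24 of 217 (11.1%, 7.55 to 15.9%) were at least 2-fold lower in Ctr-OPCs and 2 were 2-fold higher. Over all listed pairs 4.1% were 2-fold lower and 5.46% 2-fold higher when read from Ctr-OPCs, and 4.4% and 5.32% when read from IFN-γ-OPCs. Pairs scoring 0.05 to 0.2 were 2-fold lower in 12.5% and 13% and 2-fold higher in 1.85% and 1.56%. A member was chosen for a high value in its own table, so lower values and few higher ones in the other table follow in part from the choice, and the list ends at 0.02, which cuts off larger falls of low pairs.

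**Figure D5:**
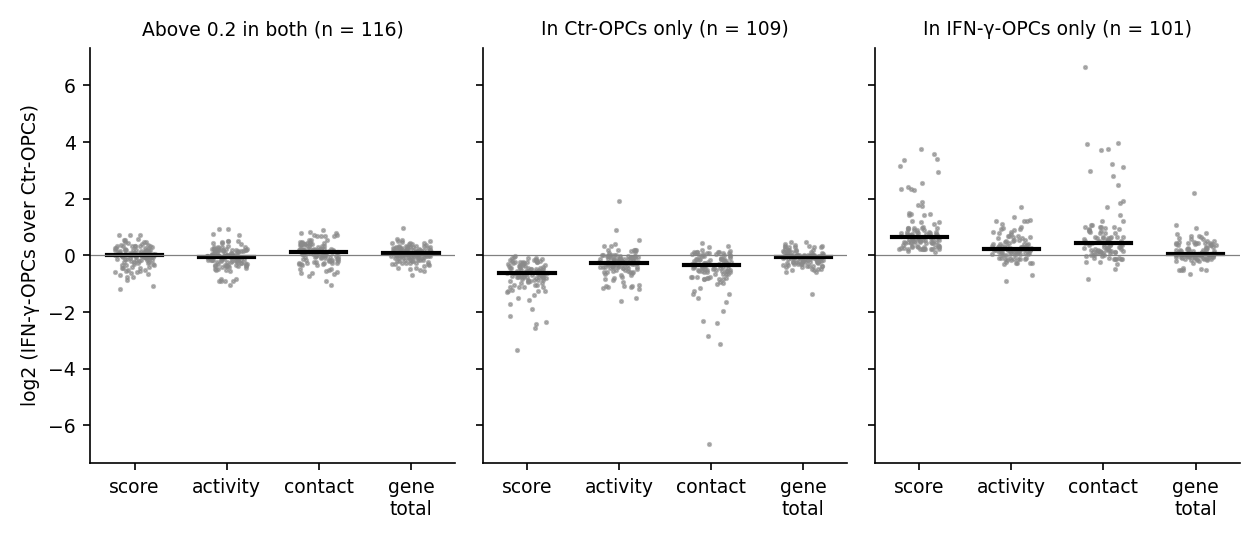
Each point is a pair above 0.2 in at least 1 table that both list, with the log2 ratio of IFN-γ-OPCs over Ctr-OPCs for its score, the element's activity, the contact as adjusted by the model and the gene total. Black lines are medians, and the panels hold 116, 109 and 101 pairs. The pairs above 0.2 in 1 table alone were split by the score, which is computed from these inputs, so the direction of their medians follows in part from the split, and the widest points are those of contact.

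For the 326 matched pairs the change of score was split into its inputs on the log2 scale, with contact as adjusted by the model, which adds a pseudocount and so leaves no contact at 0. The median absolute change was 0.48 for the score, 0.25 for activity, 0.33 for contact and 0.18 for the gene total. Pairs above 0.2 in both tables had a median change of score of 0.02, with 63 higher and 53 lower in IFN-γ-OPCs. Their contact was higher in IFN-γ-OPCs in 74 of 116 (median 0.13) and their activity in 50 of 116 (median -0.05), while the gene total was higher in 71 (median 0.08). The other pairs were split by the score itself, which is the product of activity and contact over the total, so the direction of their inputs follows in part from that choice and is given as a description. In pairs above 0.2 in Ctr-OPCs alone the medians were -0.61 for the score, -0.26 for activity and -0.35 for contact, and activity was lower in 89 of 109 and contact in 88. In pairs above 0.2 in IFN-γ-OPCs alone the medians were 0.64 for the score, 0.23 for activity and 0.44 for contact, with activity higher in 81 of 101 and contact in 84. Across 11180 matched pairs whose higher score was 0.05 to 0.2, the median absolute change of score was 0.50, close to the 0.48 of the members. The scaling of activity and contact between the tables is not stated in the sources used here, so medians near 0 cannot be told apart from a difference in scale.

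Among protein-coding targets, most of the pairs with the largest differences in score also differed in contact. The score of Gm21738 was 0.637 (Ctr-OPCs) and 0.0624 (IFN-γ-OPCs), that of Chl1 0.367 and 0.0720, and that of Dnah7c, an axonemal dynein, 0.202 and 0.0462. In all 3 the contact in IFN-γ-OPCs was 0, and for Gm21738 the contact in Ctr-OPCs was the power-law value of the model for its distance, 0.123. Activity was 5.63 and 5.57 for Dnah7c and was higher in IFN-γ-OPCs for the other two. Tbl1x, a subunit of a nuclear receptor corepressor complex, went from 0.288 to 0.0770 with activity from 2.63 to 1.52 and contact from 0.0197 to 0.00814. Pgr, the progesterone receptor, differed mainly in activity, going from 0.228 to 0.0690 with activity from 1.30 to 0.458 and contact from 0.0366 to 0.0298. Among the pairs with higher scores in IFN-γ-OPCs, Smim10l2a went from 0.0332 to 0.347 as contact went from 0 to 0.0153 over 81.4 kb. Kcnt2, a sodium-activated potassium channel, went from 0.0259 to 0.202 with an activity of 0.614 and 0.697, and its contact in IFN-γ-OPCs was also 0.123, the value that the power law gives at the shortest distances, against 0.0145 in Ctr-OPCs. Ctnna2, a neural α-catenin, went from 0.0751 to 0.252 with activity from 1.10 to 2.19 and contact from 0.0199 to 0.0314. E030030I06Rik went from 0.113 to 0.307 with contact from 0.0165 to 0.0628. Its IFN-γ element was 52.8% soft-masked, and 31.3% of its 31-base words were repeated. Across all members, 6 of the 24 Ctr pairs and 7 of the 24 IFN-γ pairs that were 2-fold lower in the other table had a contact of 0 there, and 4 Ctr and 5 IFN-γ members carried the power-law value of their own distance as their contact.

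Zfp488, a zinc-finger regulator of oligodendrocyte differentiation, had the highest score of the OPC-lineage genes. Its element, printed above, lies in an intron of Zfp488 3.76 kb from the TSS and scored 0.349 in IFN-γ-OPCs against 0.0682 in Ctr-OPCs. Activity was 3.57 against 3.04, and contact was 0.169 against 0.0231. The element centre is at position 33975002 of chromosome 14 in IFN-γ-OPCs and at 33974995 in Ctr-OPCs, a shift of 7 bp that places it on the other side of a 5 kb bin boundary. Contact depended on the bins alone: every one of 10631 and 11685 bin pairs with 2 or more listed pairs held 1 contact value. The contacts of Zfp488 in the 2 tables are thus read from different bins. Of the 326 matched pairs 4 were read from different bins, Gm17826 and Gm49296 among them.

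Of the other genes in lists for this tissue and treatment, Cspg4 and Egr1 were members. Cspg4, which encodes the NG2 proteoglycan of OPCs and pericytes, was at 0.204 (Ctr-OPCs) and 0.2097 (IFN-γ-OPCs), from an intronic element 3.34 kb from the TSS with an activity of 6.17 and 6.25. The same element scored higher, at 0.214 and 0.227, for Odf3l1, whose TSS lies 354 bp from that of Cspg4. Egr1, an immediate early transcription factor, was at 0.201 after IFN-γ and at 0.163 without it. Of 36 OPC-lineage genes 34 and 35 were listed, and 1 and 2 had a pair above 0.2. Of 54 IFN-γ response genes 36 were listed (Ctr-OPCs) and 44 (IFN-γ-OPCs), and 0 had a pair above 0.2 in either table. The median top score of these genes was 0.0331 and 0.0545, against 0.0393 and 0.0401 over all target genes. Their highest score in Ctr-OPCs was that of Cxcl11 (0.0991, and 0.138 with IFN-γ) and in IFN-γ-OPCs that of Cxcl10 (0.180, and 0.0411 in Ctr-OPCs), both chemokines and both named here after their values were seen. Over all target genes, 287 of 25779 and 271 of 26591 had a pair above 0.2. The lists are too short for their counts of members to be told apart from this share. The labelled cell type was checked by the promoter quantile: Olig2 had 0.982 and 0.994, Sox10 0.925 and 0.911 and Pdgfra 0.851 and 0.815. Markers of other cell types were listed too, with 11 and 12 of 20 for microglia, 10 and 9 of 12 for astrocytes, 10 and 11 of 12 for neurons and 8 and 7 of 12 for vascular cells and fibroblasts. The median quantile was 0.867 and 0.853 for the OPC-lineage list, 0.808 and 0.783 for the astrocyte list, 0.707 and 0.681 for the neuron list, 0.694 and 0.609 for the vascular and fibroblast list and 0.672 and 0.683 for the microglia list. It was 0.897 and 0.873 for the immediate early genes. For the IFN-γ response list it was 0.734 over the 36 genes listed in Ctr-OPCs and 0.911 over the 44 listed in IFN-γ-OPCs. The promoters of this list that were listed thus ranked higher in the treated cells. The part of other cells in the pairs was not tested. Except for Cspg4, which is also in the vascular list, 0 genes of these lists for other cell types had a pair above 0.2. These lists too are too short to tell this from the share over all target genes.

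The most distant pairs were not all from very active elements. Besides Gm38346 and Gm44108 above, 2310057J18Rik lay 2214 kb from its element in Ctr-OPCs with a score of 0.211, Gm48981 601 kb (0.244) and Gm23985 457 kb (0.234). In IFN-γ-OPCs Diaph2, a formin of the cytoskeleton, lay 2069 kb from its element with a score of 0.242. The pairs of 2310057J18Rik, Gm48981, Gm23985 and Diaph2 had no score in the other table, and their elements had activities of 3.38, 1.94, 0.517 and 0.505. Above 10 kb, 6 of 37 Ctr members (16.2%) and 6 of 41 IFN-γ members (14.6%) were above 0.2 in both tables, against 43.8% and 47.3% at 2 to 10 kb. The non-coding genes Gm15584, Gm28151, Gm13575 and Gm15731 reached scores above 0.5 in Ctr-OPCs at distances of 1.11 to 3.86 kb, from elements with 0% of 31-base words repeated. Gm15584 had 0.580 and 0.591 with an activity of 3.13 and 3.85, and Gm28151 had 0.513 and 0.5 with 5.63 and 5.57. Gm13575 had 0.506 and 0.221, and Gm15731 had 0.505 and 0.238. The pseudogene Gm43629, whose element was the third most active among the Ctr members (10.8), scored 0.216 and 0.129.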

How the data were processed

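H3K27ac HiChIP, which captures DNA contacts of acetylated chromatin, was made in 3 libraries per condition. The authors ran the ABC model on mm10 with ATAC-seq, H3K27ac CUT&RUN and HiChIP contacts in 5 kb bins, and HiC-Pro is named in the submitters' processing notes (version not given). They deposited 1 table per condition, pooled over libraries. The deposited activity is a signal value and the deposited contact a score, both without a stated scaling between tables. The ABC score was deposited as a fraction of the gene's sum, from 0.02, beside a power-law score. The deposited promoter quantile starts at 0.4, and the distance is in bp. The shorter pair lists and loop files were not used.

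Pairs with a score above 0.2 were taken from each table and matched by unversioned gene identifier and an overlap of at least 1 bp, keeping the highest scoring match. Biotypes, TSSs and exons came from GENCODE M21, and bases from RefSeq GRCm38.p6. Shares have Wilson 95% intervals and medians have 95% order-statistic intervals, which cover counting error only. A 2-fold change of score was used as the call, with no test between tables. Repeated sequence was measured as the share of 31-base words found more than once in the assembled chromosomes. Computations used pandas 2.3.3 under Python 3.11.15, with SciPy 1.17.1, NumPy 2.4.6 and figures from matplotlib 3.10.9, and matching, fold, motif and word counting were tested on simulated data.

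The genes named were the highest scores, the most active, the most distant and the most connected elements, the largest changes, pairs next to the threshold and members of the gene lists. The members and the lists were chosen with earlier results of these data known. Alternatives covered the threshold, the power-law score, the targets, the elements, the distance and the match. Depth per sample, replicate error and the raw reads were not analysed here.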

Additional observations from a re-analysis of the deposited data

How the results depend on the processing

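Values are given for Ctr-OPCs and then IFN-γ-OPCs. Of 148 recomputed shares and median distances, 107 stayed inside the interval of the reported value and 41 did not, and of 48 medians of activity and promoter quantile 36 did and 12 did not. Of 24 recomputed numbers of pairs, which have no interval, 12 stayed within 1.5 times the reported number and 12 did not. The number of pairs was 773 and 774 above 0.15, 120 and 125 above 0.25, 54 and 62 above 0.3, 1319 and 1323 by the power-law score, 152 and 132 for protein-coding targets and 155 and 150 without pairs in 1 bin. The share above the same threshold in both tables was 29.6% and 25.8% at 0.3, 58.2% and 57.9% by the power-law score, 45.4% and 52.3% for protein-coding targets, 48.1% and 49.4% where both tables list the gene and 31% and 32% without pairs in 1 bin. The share listed was 86.2% and 84.8% for protein-coding targets, 93.4% and 92.3% for genes in both tables and, with a reciprocal overlap of 50%, 73.6% in IFN-γ-OPCs. The median distance was 1.86 kb and 2.07 kb for protein-coding targets, 5.32 kb and 5.95 kb without pairs in 1 bin, 2.07 kb above 0.3 in Ctr-OPCs and 3.297 kb above 0.15 in IFN-γ-OPCs. The protein-coding share was 43.7% and 40.9% without elements beside a TSS, 41.9% and 39.3% without pairs in 1 bin, and in Ctr-OPCs 46.1% by the power-law score and 58.9% for genes in both tables. Fold changes of 2 in either direction made up 3.09% and 3.17% by the power-law score, 18.8% and 19.1% without pairs in 1 bin, 17.1% above 0.3 in Ctr-OPCs and 6.25% for protein-coding targets in IFN-γ-OPCs. The share on chromosome X, whose alternatives were chosen after seeing the data, was 9.57% and 10.6% above 0.15, 27.8% and 24.2% above 0.3, 22.4% and 23.5% for protein-coding targets, and in Ctr-OPCs 20.8% above 0.25 and 11% without pairs in 1 bin. Leaving out repeated or very active elements, or pairs whose contact was 0 or the power-law value, also chosen after seeing the data, moved none of the shares and medians out of the reported interval, and left 271 and 233 or 284 and 262 pairs. The cause of these differences was not tested, except that the threshold, the target class and the bin rule change which pairs are counted. The protein-coding share over protein-coding targets alone was not run because it is fixed.

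No paired analysis was possible because the 3 libraries of a condition were merged in 1 table, and no replicate was left out for that reason. Depth is unknown from these tables.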
